A study of Mus musculus with 5 samples.

Results

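Chemokine ligands are small secreted or membrane-tethered proteins that steer leukocytes. They were described here in sorted thymic endothelial cells of untreated and irradiated mice. Every probe set whose platform annotation held a symbol of the form Ccl or Cxcl with a number, Cx3cl1 or Xcl1 was taken, which gave 46 of 22626 probe sets. Of these, 42 carried 1 symbol and named 32 genes, 9 of them more than once. The other 4 carried several symbols, because their probes match near-identical copies of Ccl19, Ccl21 or Ccl27, and each is reported as a family.

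The study asked how the endothelium of the mouse thymus changes in expression after damage by irradiation. All 5 arrays held RNA of female C57BL/6J mice of 6 to 8 weeks. For each array, cells of several animals were pooled. CD45-positive cells were first depleted on magnetic columns, and VE-cadherin-positive cells that lacked CD45 and EpCAM were then sorted. The 3 day 0 arrays came from untreated mice. The 2 day 4 arrays came from mice 4 days after SL-TBI, a sublethal irradiation of the whole body, at 550 cGy from a cesium source, with no hematopoietic rescue. The labels call the day 4 cells CD45- thymic stromal cells and the day 0 cells thymic endothelial cells, although 1 sort protocol is given for both. All 15 endothelial marker genes examined passed the level filter, and Cdh5, which encodes VE-cadherin, lay between 11.38 and 11.64 on the 5 arrays. Transcripts of excluded cells were present too: Ptprc, which encodes CD45, lay between 6.08 and 6.86 and Epcam between 5.67 and 7.27.

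Chemokines act through G protein-coupled receptors on leukocytes, and many are held on the heparan sulfate of the endothelial surface, where rolling cells meet them. Homeostatic chemokines are made without a stimulus. In the thymus, the ligands of CCR7, CCR9 and CXCR4 guide progenitors into the organ and thymocytes within it. Inflammatory chemokines are induced by signals such as NF-kB or interferon. Those of the CC class draw monocytes, macrophages, eosinophils and T cells, and a group of CXC chemokines draws neutrophils.

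Of the 46 probe sets, 37 had a log2 value above 4 on at least 2 arrays and were tested. Called at a Benjamini-Hochberg adjusted p under 0.05 in limma were 1 higher at day 4, that of Ccl8, and 0 lower. Among all 15065 tested probe sets, 0.717% were called higher and 0.677% lower. With an unadjusted limma p under 0.05, 15 chemokine probe sets were higher and 8 lower, against 10.1% and 9.34% of all tested probe sets. Both day 4 arrays lay above all day 0 arrays for 15 of the 46, and below them for 13. Over all probe sets these shares were 16.7% and 17.6%. At an adjusted p under 0.1, 6 chemokine probe sets were higher and 4 lower, against 2.31% and 2.05% of all tested probe sets. The median log2 change (day 4 minus day 0) was -0.00 over the 46, with 23 above 0 and 23 below, and 0.002 over all probe sets. The role groups lay apart within that balance: the median was 1.20 for the 15 inflammatory CC probe sets and -0.86 for the 5 of thymus-homing chemokines. Roles were assigned from textbook knowledge with earlier results of these data known, so these medians only describe the groups. RNA of sorted bulk cells cannot tell apart a change in the number of producing cells and a change in RNA per cell.

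**Figure D1:**
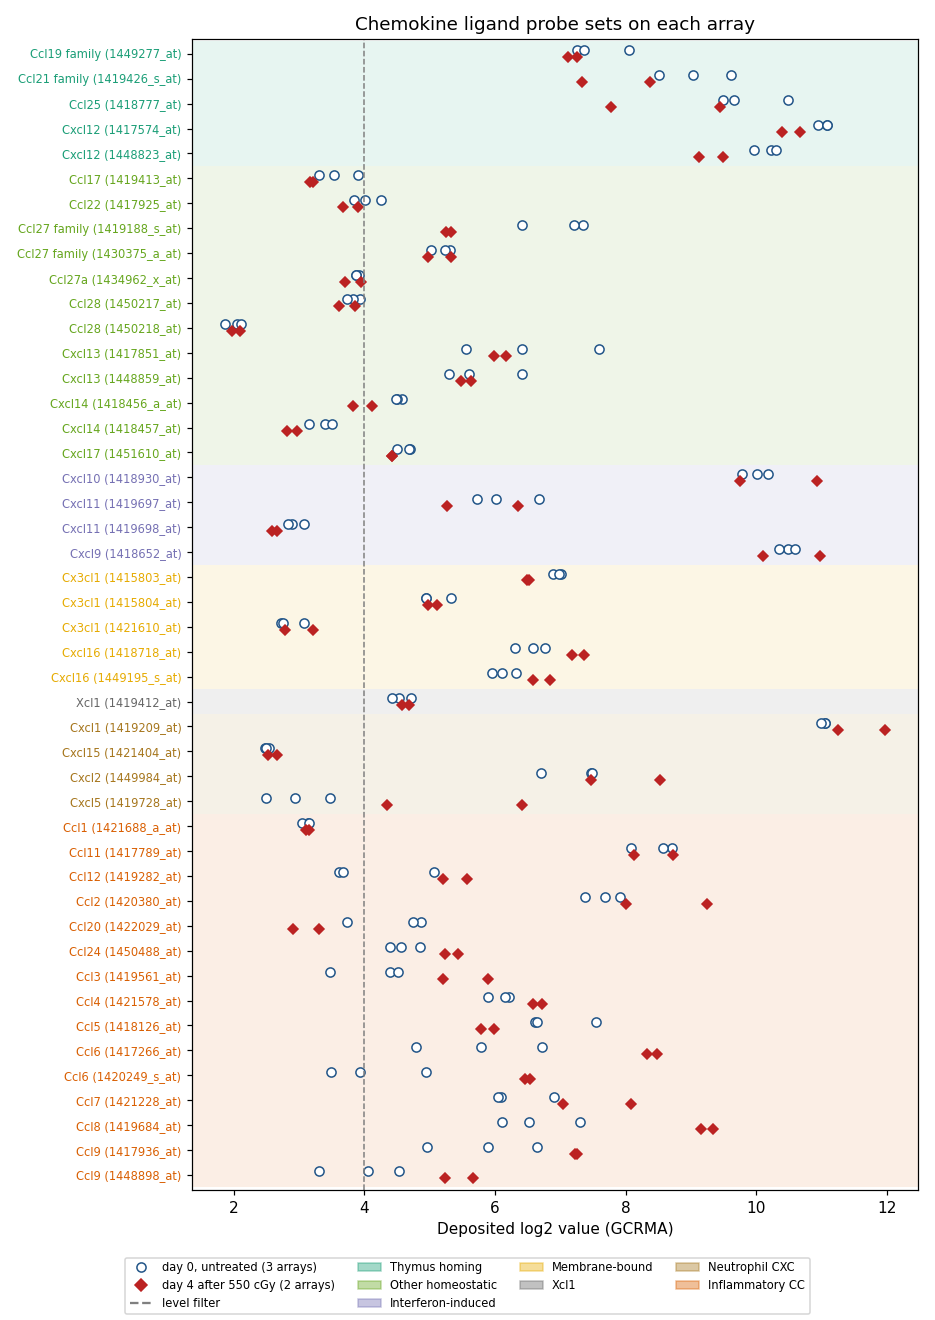
Deposited log2 values of all 46 chemokine ligand probe sets, grouped by role (shading), with 1 point for each of the 3 day 0 arrays (circles) and the 2 day 4 arrays (diamonds) and the level filter of 4 as a dashed line. The day 4 points of Ccl8 lie at 9.15 and 9.34, to the right of all day 0 points, while those of Cxcl12 lie to the left.

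Ccl8, whose product attracts monocytes and T cells, was the called gene. It stood at 7.30, 6.11 and 6.52 on the day 0 arrays and at 9.15 and 9.34 on the day 4 arrays. Both day 4 values lay above every day 0 value, and the day 4 arrays were closer to each other than the day 0 arrays were. Its mean of 6.64 ± 0.603 (SD, n = 3) at day 0 rose to 9.24 ± 0.136 at day 4 (SD, n = 2), which is 6.06-fold (log2 change 2.60 ± 0.331 SE, limma adjusted p = 0.0313). The change stayed between 2.33 and 2.93 when any single array was left out. The call was kept with day 0 replicate 1 left out, at an adjusted p of 0.0081, and with day 0 replicate 2 left out, at 0.0356. It was lost without day 0 replicate 3 (0.123), day 4 replicate 1 (0.147) or day 4 replicate 2 (0.076).

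Ccl8 belongs to a run of 6 consecutive chemokine genes on chromosome 11, in the gene order of the RefSeq assembly GRCm38.p6, which reads Ccl2, Ccl7, Ccl11, Ccl12, Ccl8 and Ccl1. Ccl2, Ccl7 and Ccl12 encode ligands of CCR2, the receptor that draws monocytes out of the blood. Ccl2 read 7.91, 7.68 and 7.38 at day 0 and 9.25 and 8.01 at day 4. Ccl7 read 6.91, 6.10 and 6.05 against 8.08 and 7.04. For both, day 4 replicate 1 stood well above the rest, and day 4 replicate 2 lay only just above the highest day 0 array. Their log2 changes of 0.97 (95% interval 0.09 to 1.86, limma adjusted p = 0.223) and 1.20 (0.27 to 2.14, adjusted p = 0.175) did not pass the test. Without day 4 replicate 1 they were 0.36 and 0.68.

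Ccl12 was at 5.07, 3.61 and 3.67 on the day 0 arrays and 5.57 and 5.20 at day 4. Day 0 replicate 1 thus lay next to the day 4 arrays, and the change of 1.27 did not pass (limma adjusted p = 0.209), though it did without that array (1.75, adjusted p = 0.0208). The remaining day 0 values were both under the filter, so Ccl12 passed it only through the day 4 arrays. Its change is thus largely against background, and the call without day 0 replicate 1 is wholly so. Ccl11, or eotaxin, which recruits eosinophils, overlapped between the groups. Its day 0 values were 8.71, 8.58 and 8.09 and its day 4 values 8.73 and 8.13, a change of -0.03 (95% interval -0.64 to 0.58) that was above 0 without day 0 replicate 1 (0.09), day 0 replicate 2 (0.03) or day 4 replicate 2 (0.27). Ccl1, at the end of the run, stayed under the filter on all arrays, between 3.04 and 3.16.

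A second run of 5 consecutive chemokine genes on the same chromosome reads Ccl5, Ccl9, Ccl6, Ccl3 and Ccl4. Ccl6 and Ccl9 are rodent CC chemokines that act on CCR1 of myeloid cells. Probe set 1417266_at of Ccl6 read 6.72, 4.79 and 5.79 at day 0 and 8.48 and 8.33 at day 4. Its other probe set, 1420249_s_at, read 4.94, 3.49 and 3.94 against 6.46 and 6.53. In each, the day 4 arrays nearly coincided above day 0 arrays that were spread over more than a log2 unit. The changes were 2.64 (95% interval 1.39 to 3.89, limma adjusted p = 0.0779) and 2.37 (1.39 to 3.34, adjusted p = 0.0583). They were close in size to that of Ccl8 but short of the threshold. Both probe sets passed without day 0 replicate 1, at 3.12 (limma adjusted p = 0.0268) and 2.78 (adjusted p = 0.0102). At day 0, however, 1420249_s_at was above the filter on replicate 1 only. It thus passed the filter only through the day 4 arrays, and its change of 2.37 is largely against background. Without day 0 replicate 1 its call is wholly against background.

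Ccl9 gave 6.65, 4.96 and 5.89 at day 0 and 7.22 and 7.25 at day 4 by 1417936_at. By 1448898_at it gave 4.53, 3.31 and 4.05 against 5.66 and 5.23. Day 4 lay above day 0 in both probe sets, with changes of 1.40 and 1.48 that did not pass (limma adjusted p = 0.178 and 0.109). Ccl3 and Ccl4 encode chemokines made by activated myeloid cells and lymphocytes. Ccl3 was at 4.40, 3.48 and 4.52 at day 0 and 5.90 and 5.21 at day 4. Ccl4 was at 6.21, 5.90 and 6.15 at day 0 and 6.72 and 6.59 at day 4. Neither gene's groups overlapped, and neither change, 1.43 for Ccl3 (adjusted p = 0.122) and 0.57 for Ccl4 (adjusted p = 0.097), passed.

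Ccl5 lies next to these genes and had a change below 0. Its product draws T cells and other leukocytes. It read 7.55, 6.62 and 6.65 at day 0 and 5.98 and 5.78 at day 4, so the groups did not overlap, and the change of -1.06 (95% interval -1.78 to -0.34) did not pass (limma adjusted p = 0.143).

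**Figure D2:**
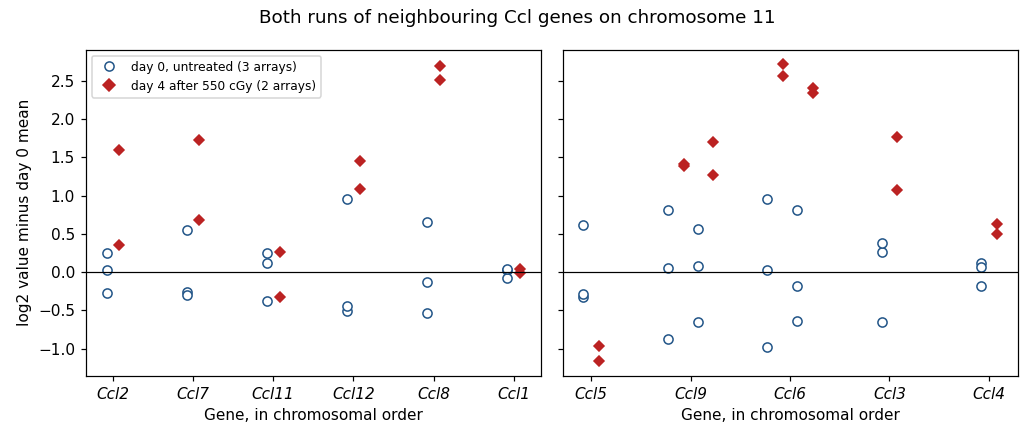
Log2 value of each array minus the day 0 mean of the probe set, for the consecutive Ccl genes of both chromosome 11 runs in their chromosomal order, with 3 day 0 arrays (circles) and 2 day 4 arrays (diamonds); a gene with a second probe set has it drawn to the right. In the first run (left), Ccl8 stands 2.60 higher on average while Ccl11 and Ccl1 straddle 0; in the second (right), Ccl5 lies below 0 at day 4 and the other genes above.

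The 250 bases before the start sites of the single-symbol members with the largest changes and a RefSeq promoter entry are shown because all 4 lie in these runs and had day 4 values above every day 0 value. The sequences, of GRCm38.p6, are chr11:82114935-82115184 (+ strand) for Ccl8, chr11:83593088-83593337 (- strand) for Ccl6, chr11:83578637-83578886 (- strand) for Ccl9 and chr11:83649379-83649628 (- strand) for Ccl3. Each is written 5' to 3' in the direction of its gene. Capitals mark matches, on either strand, to the NF-kB motif, an ISRE-like motif, a GAS motif (TTCNNNGAA), an AP-1 motif (TGANTCA) or a TATA box (TATAAA).
Ccl8: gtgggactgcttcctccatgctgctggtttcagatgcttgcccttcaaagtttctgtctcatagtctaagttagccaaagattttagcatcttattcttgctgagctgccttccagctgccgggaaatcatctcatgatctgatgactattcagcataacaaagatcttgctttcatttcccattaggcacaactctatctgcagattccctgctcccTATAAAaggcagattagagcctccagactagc
Ccl6: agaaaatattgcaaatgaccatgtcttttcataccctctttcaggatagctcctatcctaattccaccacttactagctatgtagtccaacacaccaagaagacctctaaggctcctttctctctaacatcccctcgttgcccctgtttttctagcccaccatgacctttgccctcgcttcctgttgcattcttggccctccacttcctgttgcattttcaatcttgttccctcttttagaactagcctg
Ccl9: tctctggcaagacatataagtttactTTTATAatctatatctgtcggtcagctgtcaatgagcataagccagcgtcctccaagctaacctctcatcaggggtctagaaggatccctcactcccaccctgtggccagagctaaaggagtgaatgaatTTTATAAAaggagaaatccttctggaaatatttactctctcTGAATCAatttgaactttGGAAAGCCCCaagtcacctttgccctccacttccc
Ccl3: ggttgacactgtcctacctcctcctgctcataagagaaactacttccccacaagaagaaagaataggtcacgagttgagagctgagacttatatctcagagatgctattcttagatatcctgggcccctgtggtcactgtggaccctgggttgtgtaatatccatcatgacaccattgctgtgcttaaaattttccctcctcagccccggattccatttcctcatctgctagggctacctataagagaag
Ccl8 held a TATA match from 32 to 27 bases before the start. Ccl9 held an NF-kB match from 35 to 26 bases before the start, an AP-1 match from 53 to 47 bases before it, and 3 TATA matches, 2 of which overlap. The windows of Ccl6 and Ccl3 held no match to these letters. A TATA match was found in 12.4% of all 32851 promoter windows of 250 bases, an NF-kB match in 7.25%, an AP-1 match in 6.75%, a GAS match in 7.02% and an ISRE-like match in 2.98%. Of 38 chemokine ligand symbols on the probe sets, 27 had an entry. In the first entry of each, 7 held a TATA match, 6 an NF-kB match (Ccl1, Ccl9, Ccl20, Cxcl1, Cxcl2 and Cxcl10), 3 an ISRE-like match (Ccl19, Cxcl10 and Cxcl14), 2 an AP-1 match and 2 a GAS match. A match describes the letters only and is not evidence of a site in use.

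The other inflammatory CC genes were Ccl24 and Ccl20. Ccl24, or eotaxin-2, read 4.86, 4.40 and 4.56 at day 0 and 5.44 and 5.23 at day 4. The groups did not overlap, and the change of 0.73 did not pass (limma adjusted p = 0.0926). Ccl20, the ligand of CCR6, read 4.87, 3.74 and 4.75 against 2.91 and 3.30, all day 4 values being under the filter. It passed the filter only through day 0 replicates 1 and 3, and its change of -1.34, against background, did not pass the test (adjusted p = 0.129). With day 0 replicate 2 left out, which keeps only its high day 0 arrays, the adjusted p was 0.0229, and without either of the others it missed the filter. In all, 11 of the 15 inflammatory CC probe sets had both day 4 arrays above day 0 and 2 had them below. Over all probe sets the shares were 16.7% and 17.6%. Ccl6 and Ccl9 each count with 2 probe sets.

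Macrophages make many of these CC chemokines, and their markers moved in the same direction. Of 14 macrophage markers listed, 13 were on the array and all of these were tested. For 12 of the 13, both day 4 arrays lay above all day 0 arrays, against 16.7% of all probe sets. Against 0.717% of all tested probe sets, 2 of the 13 were called higher. These were the scavenger receptor gene Cd163, at 2.89 (limma adjusted p = 0.017), and the Fc receptor gene Fcgr1, at 2.37 (adjusted p = 0.0313). Cd163 was under the filter on every day 0 array and passed it only through day 4, so its change is against background. Fcgr1, at 4.42, 3.34 and 3.98 at day 0 and 6.40 and 6.17 at day 4, also passed it only through day 4. The Fcgr1 change is thus largely against background. Both calls were lost without day 0 replicate 3, day 4 replicate 1 or day 4 replicate 2. The summed signal of the list, on the log2 scale, was 10.85, 10.02 and 10.23 at day 0 and 11.91 and 11.74 at day 4. Ptprc, the CD45 gene of leukocytes in general, had means of 6.52 at day 0 and 6.53 at day 4. The day 0 arrays also stood in one order, with replicate 1 highest and replicate 2 lowest, in 10 of the 15 inflammatory CC probe sets. That order was found in 17.1% of all probe sets. It was also that of the summed macrophage, monocyte and neutrophil, dendritic, thymocyte and thymic epithelial signals. The thymic epithelial sums of replicates 2 and 3 were nearly equal, at 11.25 and 11.26. What set this order was not tested. Of 11 monocyte and neutrophil markers 10 were on the array and 4 were tested. S100a8 (-2.93, limma adjusted p = 0.0104) and S100a9 (-1.88, adjusted p = 0.00662) were lower; the first call was lost without day 0 replicate 3 and the second without day 4 replicate 1. Both were under the filter on the day 4 arrays and passed it only through day 0, so their changes are against background. Over the 10 genes the median change was -0.18 and 6 changes were below 0. The summed signal was nonetheless 8.79 to 9.79 at day 0 and 10.13 to 10.83 at day 4, because it was dominated by Lyz2, the lysozyme gene that macrophages also express (named after its values were seen). The Lyz2 mean was 8.63 ± 0.739 on the 3 untreated arrays against 10.37 ± 0.529 on the 2 irradiated ones (SD), and the change did not pass (limma adjusted p = 0.122). Ccr2, Csf3r, Mpo, Elane and Ngp were under the filter on all arrays. The part of these cells in the chemokine values was not tested.

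Neutrophil-attracting CXC chemokines, among them ligands of CXCR2, had 4 probe sets. Cxcl1 read 11.05, 11.06 and 11.00 at day 0 and 11.98 and 11.26 at day 4. The day 0 arrays agreed closely and day 4 replicate 1 stood apart, so the change of 0.58 (95% interval 0.08 to 1.09) did not pass (limma adjusted p = 0.207). It was 0.23 without day 4 replicate 1 and passed without day 4 replicate 2 (0.94, adjusted p = 0.0441). Cxcl2 read 7.47, 6.70 and 7.48 against 8.53 and 7.47, and its groups overlapped. Its change of 0.78 (95% interval -0.13 to 1.69) did not pass (adjusted p = 0.309). Cxcl5 was under the filter on the day 0 arrays, at 3.47, 2.49 and 2.94, and above it at day 4, at 6.41 and 4.34. The gap of 2.07 between both day 4 arrays was nearly as large as the mean change of 2.41 (adjusted p = 0.12). That change rests on background values at day 0, and Cxcl5 passed the filter only through the day 4 arrays. Cxcl15, a chemokine of lung epithelium, lay between 2.48 and 2.67.

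All 5 probe sets of thymus-homing chemokines had negative changes, none of which passed the limma test; 3 had an unadjusted p under 0.05. In 4 of the 5, among them both Cxcl12 probe sets, both day 4 arrays lay below all day 0 arrays, against 17.6% of all probe sets. Cxcl12 encodes the ligand of CXCR4, which retains progenitors and guides early thymocytes in the cortex. By 1448823_at it was at 10.23, 10.31 and 9.97 at day 0 and 9.49 and 9.12 at day 4. By 1417574_at it was at 10.95, 11.08 and 11.08 against 10.40 and 10.67. Both probe sets separated the groups, with changes of -0.86 (95% interval -1.25 to -0.48, limma adjusted p = 0.0672) and -0.50 (-0.79 to -0.21, adjusted p = 0.108). With an intensity trend and robust fitting, the first passed (adjusted p = 0.0418).

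Ccl25, made mainly by thymic epithelium and the ligand of CCR9, read 10.48, 9.66 and 9.49 at day 0 and 9.44 and 7.77 at day 4. Day 4 replicate 1 lay at the edge of the day 0 range and only replicate 2 stood clearly below it. The change of -1.27 (95% interval -2.55 to 0.01, limma adjusted p = 0.26) was -0.44 without day 4 replicate 2 and -2.11 without day 4 replicate 1. The Ccl21 family probe set, annotated to Ccl21a, Ccl21b, Ccl21c, Ccl21d and other copies, detects a CCR7 ligand of lymphatic endothelium and medullary epithelium. It read 9.61, 9.03 and 8.51 against 8.38 and 7.34. Here too replicate 2 was the lower day 4 array, and the change of -1.19 (-2.18 to -0.20, adjusted p = 0.192) was -0.67 without it and -1.71 without replicate 1. The Ccl19 family probe set, for the other CCR7 ligand, read 8.05, 7.25 and 7.37 against 7.25 and 7.12. Day 4 replicate 1 equalled the lowest day 0 array to 2 decimals, and the change was -0.37 (-0.97 to 0.23, adjusted p = 0.449).

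The summed signal of thymic epithelial markers was lowest on day 4 replicate 2 too, though not that of each marker. Of 14 thymic epithelial markers 13 were on the array and 12 were tested. Of these 0 were called and 5 had an unadjusted limma p under 0.05, all lower, against 9.34% of all tested probe sets. Of the 13 changes 11 were below 0, against 11226 of all 22626 probe sets. The median change was -0.77. The sum was 11.95, 11.25 and 11.26 at day 0 and 11.54 and 10.40 at day 4, while Aire, at 3.95 and 4.50, and Cldn4, at 3.87 and 4.33, were higher on day 4 replicate 2 than on replicate 1 (both named after their values were seen). Foxn1, the master regulator of thymic epithelium, was under the filter on every array, at no more than 3.58, while Epcam was at 7.17 and 5.67 at day 4. Of the 5 lymphatic endothelial markers 4 were tested, and 0 of these were called, also at an unadjusted p under 0.05. Their summed signal was 9.09 to 9.96 at day 0 and 9.10 to 9.27 at day 4, and Prox1, which specifies lymphatic endothelium, stayed between 1.91 and 2.24. The 10 fibroblast markers, from cells that can make CXCL12, gave 12.64 to 12.82 against 12.70 to 13.16. Of these 0 were called and 3 had an unadjusted limma p under 0.05, with changes in both directions. The part of these cells in the thymus-homing values was not tested.

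**Figure D3:**
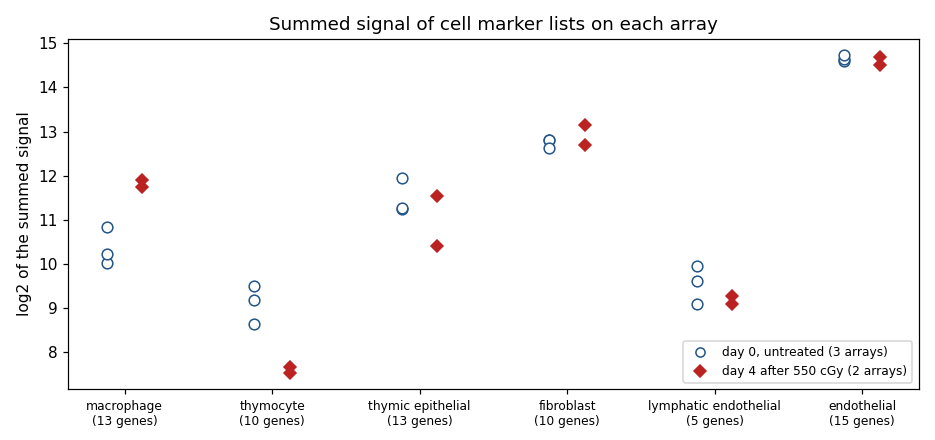
Log2 of the summed signal of marker genes for 6 cell types on each array (circles, day 0; diamonds, day 4). The macrophage sum lies at 11.74 to 11.91 at day 4 and 10.02 to 10.85 at day 0, the thymocyte sum is lower at day 4, and the epithelial sum is lowest on day 4 replicate 2, at 10.40.

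Other homeostatic chemokines had 12 probe sets, of which 7 were tested; 0 were called and 2 had an unadjusted limma p under 0.05. Ccl27, a skin chemokine and ligand of CCR10, was represented by 2 tested family probe sets annotated to Ccl27a, Ccl27b and other copies. The 1419188_s_at probe set read 7.35, 6.42 and 7.21 at day 0 and 5.33 and 5.25 at day 4, and its groups lay more than a log2 unit apart. Its change of -1.70 (95% interval -2.38 to -1.02) was just short of the threshold (limma adjusted p = 0.0542). Among settings without a block, it passed with a level filter at 6 (adjusted p = 0.0478), with an intensity trend and robust fitting (0.0451) and without day 0 replicate 2 (-1.99, adjusted p = 0.00714). The 1430375_a_at probe set, with the same symbols, read 5.02, 5.31 and 5.23 against 4.97 and 5.32, a change of -0.05. These probe sets therefore disagree on the family. The remaining probe set, of Ccl27a alone, lay between 3.70 and 3.95.

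Cxcl13, which draws B cells through CXCR5, varied most among the day 0 arrays, at 7.60, 6.42 and 5.56 by 1417851_at. The day 4 arrays were within that range, at 6.17 and 5.98. Its other probe set read 6.41, 5.61 and 5.29 against 5.64 and 5.48. The changes of -0.45 (95% interval -1.78 to 0.88) and -0.21 (-0.98 to 0.56) were above 0 without day 0 replicate 1, at 0.09 and 0.11.

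Cxcl14, a chemokine of epithelia and fibroblasts, read 4.58, 4.50 and 4.48 at day 0 and 3.82 and 4.11 at day 4. Its groups did not overlap, and its change of -0.55 did not pass (limma adjusted p = 0.0913). A second Cxcl14 probe set was under the filter, between 2.81 and 3.50. Cxcl17, a mucosal chemokine, read 4.50, 4.70 and 4.68 against 4.43 and 4.43, a change of -0.20 (adjusted p = 0.349). The ligands of CCR4, which draw thymocytes to the medulla, were near or under the filter. Ccl22 read 4.26, 3.84 and 4.01 at day 0 and 3.90 and 3.68 at day 4 (adjusted p = 0.418). Ccl17 lay between 3.17 and 3.90, and both Ccl28 probe sets stayed between 1.87 and 3.93.

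Interferon-induced chemokines, the ligands of CXCR3 on activated T cells, did not pass. Of their 4 probe sets 3 were tested, and 0 had an unadjusted limma p under 0.05. Cxcl9 read 10.49, 10.35 and 10.60 at day 0 and 10.98 and 10.10 at day 4. Cxcl10 read 10.18, 10.01 and 9.79 against 10.93 and 9.75. Cxcl11 read 6.67, 6.02 and 5.72 against 6.35 and 5.26. For Cxcl9 and Cxcl10, day 4 replicate 1 lay above all day 0 arrays and replicate 2 below them. The changes were 0.06 for Cxcl9 (95% interval -0.56 to 0.68), 0.34 for Cxcl10 (-0.48 to 1.16) and -0.33 for Cxcl11 (-1.29 to 0.62). A second Cxcl11 probe set was under the filter on all arrays, between 2.59 and 3.07. The changes of Cxcl9 and Cxcl10 were -0.38 and -0.25 without day 4 replicate 1, and that of Cxcl11 was 0.21 without day 4 replicate 2. Of 24 other interferon-induced genes listed, 21 were on the array and 20 were tested. Both day 4 arrays lay above day 0 for 10 of the 21 and below for 2, against 16.7% and 17.6% of all probe sets. Of those tested, 9 had an unadjusted limma p under 0.05, a count that holds changes in both directions. Among all tested probe sets, 10.1% were higher and 9.34% lower at that threshold. The transcription factor gene Irf7 was called higher, at 0.78 (adjusted p = 0.0447), a call lost on leaving out any 1 array. The summed signal of that list was 13.76 to 13.93 at day 0 and 14.26 and 13.86 at day 4.

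None of the 5 membrane-bound chemokine probe sets was called, and 3 of the 4 tested had an unadjusted limma p under 0.05. Of these 2 were higher and 1 lower, against 10.1% and 9.34% of all tested probe sets. Cxcl16, a tethered chemokine that also takes up oxidized lipoprotein, read 6.59, 6.31 and 6.77 at day 0 and 7.18 and 7.36 at day 4 by 1418718_at. By 1449195_s_at it read 6.32, 5.95 and 6.11 against 6.84 and 6.58. Both probe sets put day 4 above day 0, by 0.72 (limma adjusted p = 0.0939) and 0.58 (adjusted p = 0.123), and neither passed. Cx3cl1, or fractalkine, which tethers CX3CR1-positive monocytes to endothelium, read 6.89, 7.01 and 6.98 against 6.49 and 6.52 by 1415803_at. Its groups were tight and apart, with a change of -0.45 (95% interval -0.68 to -0.23, adjusted p = 0.0848). By 1415804_at it read 4.94, 5.32 and 4.94 against 4.98 and 5.11, an overlap with a change of -0.02 (-0.38 to 0.34) that was above 0 without day 0 replicate 2 (0.11) or day 4 replicate 1 (0.05). The remaining Cx3cl1 probe set was under the filter, between 2.73 and 3.22. Xcl1, which attracts cross-presenting dendritic cells, read 4.53, 4.43 and 4.72 against 4.57 and 4.69, a change of 0.07 (-0.22 to 0.36).

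**Figure D4:**
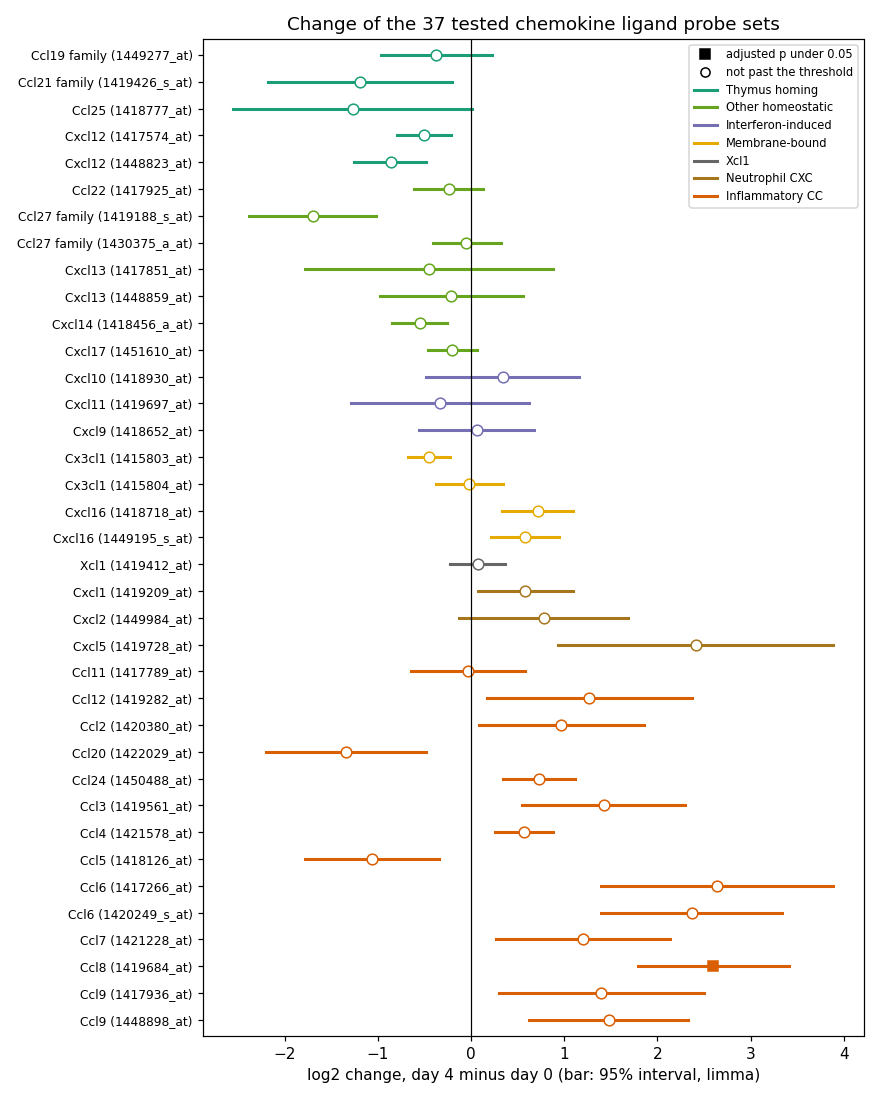
Log2 change (day 4 minus day 0) of the 37 tested chemokine ligand probe sets with 95% intervals from limma, coloured by role; a filled square marks an adjusted p under 0.05. Ccl8 at 2.60 has the filled square, the interval of the Ccl27 family probe set at -1.70 ends at -1.02, and those of Cxcl9, Cxcl10 and Cxcl11 include 0.

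Of 18 chemokine receptor genes listed, 16 were on the array and 6 were tested. An unadjusted limma p under 0.05 was found for 3, with changes in both directions. Besides Ccr9 these were Ccr7 (-1.31, limma adjusted p = 0.06) and Cxcr4 (0.95, adjusted p = 0.0689), both named after their values were seen. The day 4 values of Ccr7 were near or under the filter, at 3.37 and 4.02. Ccr9, the receptor for CCL25 on thymocytes, was called lower: it read 6.13, 5.36 and 6.17 at day 0 and 3.31 and 2.56 at day 4, a change of -2.95 (limma adjusted p = 0.0199). Its day 4 values were under the filter, so it was tested only through the day 0 arrays and the change is against background. The call was lost without day 0 replicate 3, day 4 replicate 1 or day 4 replicate 2. Markers of thymocytes, the cells that carry CCR9, were lower with it. Of 12 listed 10 were on the array and all 10 changes were below 0, against 11226 of all 22626 probe sets. Of the 8 tested 3 were called lower, against 0.677% of all tested probe sets. They were Rag1 (-4.01, limma adjusted p = 0.00771), Cd8b1 (-2.30, adjusted p = 0.0194) and Dntt (-2.21, adjusted p = 0.0388). Rag1 and Cd8b1 too were under the filter on both day 4 arrays and passed it only through day 0. The Rag1 call was lost without day 4 replicate 1, and those of Cd8b1 and Dntt without day 0 replicate 3 or either day 4 array. The summed thymocyte signal was 8.64 to 9.50 at day 0 and 7.53 to 7.67 at day 4, and its part in the Ccr9 value was not tested. Of the 5 atypical receptors, which take up or carry chemokines without signalling for migration, 4 were tested and 0 were called. An unadjusted limma p under 0.05 was found for 2, with changes in opposite directions. Of 17 measured genes induced by NF-kB, Selp, which encodes P-selectin, was called higher at 0.94 (adjusted p = 0.0464), a call lost on leaving out any 1 array. Another 3, also higher, had an unadjusted limma p under 0.05. Both day 4 arrays lay above all day 0 arrays for 6 of the 17 and below for 0, against 16.7% and 17.6% of all probe sets.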

How the data were processed

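The authors deposited 1 log2 value for each probe set on each array; the submitters' processing notes name GCRMA, without a version. This method models background from probe sequence and brings arrays to a shared distribution, so a shift of most genes can be hidden and low values are uncertain. That values are log2 follows from their range of 1.57 to 14.4; array medians were 5.25 to 5.29. No detection calls were used. Of 22690 probe sets, 64 controls were left out. Probe sets above 4 on at least 2 arrays (15065) were fitted in R 4.3.3 with limma 3.58.1 (lmFit, eBayes; two-sided), with no covariate and 3 residual and 3.09 prior degrees of freedom. The p-values were Benjamini-Hochberg adjusted over all of them. The number of arrays limits the precision, and because each array is a pool, p-values measure the spread between pools, which may be partly technical. No batch is given in the labels. Genes of partner and marker lists were represented by their brightest single-symbol probe set. The fit was tested on simulated data. Figures were drawn with matplotlib 3.10.9.

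Every member past the filter is given by array and the others by range. Of each list, up to 3 called genes per direction are named. List counts at an unadjusted limma p under 0.05 stand against 10.1% of all tested probe sets higher and 9.34% lower. Members and lists were chosen with earlier results of these data known. The alternatives were quantile normalization, median centring, other level filters, 1 probe set per gene, an intensity trend with robust fitting, a block for the replicate number, array weights, a threshold of 0.1 and leaving out each array.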

Additional observations from a re-analysis of the deposited data

How the results depend on the processing

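The count of all probe sets called, 210, was 53 with array weights, 401 with the replicate block, 657 at a threshold of 0.1 and 15 to 165 with 1 array left out (15 without day 4 replicate 1, 32 without day 0 replicate 3). Chemokine probe sets called higher numbered 0 with array weights, 8 with the replicate block, 6 at 0.1 and 0 to 4 with 1 array left out. Those called lower numbered 1 with a level filter at 6, 2 with an intensity trend and robust fitting, 5 with the replicate block, 4 at 0.1 and 0 to 2 with 1 array left out. Other settings gave 1 and 0. Ccl8 kept its direction under 15 alternatives and its call under 11. The threshold of 0.1 is among them but reuses the main fit, so it could change neither. With both day 4 arrays kept, the limma adjusted p lay between 0.0081 and 0.123, and array weights gave 0.0839.

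The labels do not say that replicate numbers pair the arrays, and same-numbered arrays correlated at 0.2 and 0.08 in their deviations from the group means. The block leaves 1 residual degree of freedom. Under it, Ccl8, both Ccl6 probe sets, Ccl9 1448898_at, Ccl3, Ccl7, Cxcl5 and Cxcl2 were called higher, and Ccl5, Ccl25, the Ccl21 family, the Ccl27 family 1419188_s_at and Cxcl12 1448823_at lower, with adjusted p from 0.00614 to 0.0417.

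With 1 array left out, changes of both signs were found for Ccl11 (-0.33 to 0.27), Cxcl10 (-0.25 to 0.93), Cxcl11 (-0.88 to 0.21), Cxcl9 (-0.38 to 0.50), Cx3cl1 1415804_at (-0.085 to 0.11), the Ccl27 family 1430375_a_at (-0.22 to 0.13), Cxcl13 1417851_at (-0.93 to 0.088) and Cxcl13 1448859_at (-0.45 to 0.11). The cause was not tested. A lone day 4 array was assumed to vary like the day 0 arrays. Values near or under the filter of 4 are close to background.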

Other observations

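Some lists that bear on chemokine handling showed few calls. Of the chemokines made by platelets, Pf4 and Ppbp, both were tested and 0 were called, with 1 at an unadjusted limma p under 0.05. Of 20 genes listed for heparan sulfate synthesis, proteoglycans and chemokine-cleaving proteases, 19 were on the array and 18 were tested. An unadjusted limma p under 0.05 was found for 3, with changes in both directions. The matrix protease gene Mmp2, whose product can cleave several chemokines, was called higher: it read 7.03, 6.53 and 6.61 at day 0 and 7.98 and 7.73 at day 4 (1.13, limma adjusted p = 0.0496). Of the fits with 1 array left out, only that without day 0 replicate 1 kept the call, and it was also lost with quantile normalization, median centring, array weights or a level filter on the mean.

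Marker lists of further cells that carry chemokine receptors had 0 calls. Of 9 dendritic cell markers on the array 7 were tested and 4 had an unadjusted limma p under 0.05, with changes in both directions. Among all tested probe sets, 10.1% were higher and 9.34% lower at that threshold. Their summed signal was 12.42 to 12.70 at day 0 and 12.02 to 12.35 at day 4. Of 7 eosinophil, basophil and mast cell markers 2 were tested and 1 had an unadjusted p under 0.05, and Epx, Siglecf, Cpa3, Mcpt4 and Fcer1a were under the filter on all arrays. Of 10 pericyte and smooth muscle markers 1 had an unadjusted p under 0.05, with a summed signal of 13.03 to 13.15 against 12.91 to 12.96. Of the 15 endothelial markers 1 did, at 14.61 to 14.74 against 14.50 to 14.69.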
